A study of Drosophila melanogaster with 2 samples.

Results

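Histone variants and the proteins of the histone locus body supply embryonic chromatin with its histones, and 7 genes of this group were examined for binding of the transcription factor E2f1: Slbp, mxc, mute, His2Av, His3.3A, His3.3B and BigH1. They were listed by name, among 13945 protein-coding genes on the 6 chromosome arms, and a region was assigned to a gene when its summit lay inside the gene or within 1 kb of it (Ensembl BDGP6.54). The series is a ChIP-seq experiment with 1 group of 2 biological replicates, whole Drosophila melanogaster embryos aged 0 to 24 hours from strain E2f1-GFP, in which an insertion expresses E2f1 fused to eGFP. Chromatin was sheared by sonication, with a size range of 200 to 800 bp. The labels' description names an anti-GFP antibody for the precipitation, while their antibody field names E2f1. There is no second genotype, treatment or stage, and embryos of all ages and tissues were mixed, so binding in a few cells and weak binding in many cannot be told apart. The files give regions and no reads, so sequencing depth is unknown, and with 2 replicates and 1 group no test between conditions was possible.

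E2f1 is an E2F transcription factor that, with the partner Dp, switches on genes needed for S phase. Canonical histones are made in S phase from a repeated gene cluster on which the histone locus body, a nuclear body, assembles. Their mRNAs end in a stem-loop and not in a poly(A) tail. Variant histones such as H2Av and H3.3 are encoded outside the cluster, and H3.3 is deposited outside replication as well.

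Region counts and heights below come from 4 thresholded sets in the dm6 build: a conservative set of 4439 regions and a larger set of 5167 regions over both replicates, and the replicates' own sets of 3779 and 3280 regions. Every region in them had a global irreproducible discovery rate (IDR, the expected share of irreproducible regions among all those ranked at least as high) of 0.01 or lower. Ranked lists of 71193 to 120213 candidate regions lay behind them. The global IDR of a region depended on the list. The Slbp region had 0.00261 in the conservative set and 8.54e-05 in the larger set. Values from a replicate's own list are not read here as agreement between the 2 replicates. Heights are the authors' peak heights, with no stated scaling between lists, and rank positions are by height within a list.

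In the conservative set 4 of the 7 genes had a region: Slbp, mxc, His2Av and His3.3B, with 5 regions in all. His3.3A, mute and BigH1 had none. By the same rule 27.4% of all protein-coding genes had a region. The larger set had regions at 5 of the 7 genes (all genes, 30.1%), His3.3A being the addition. The set of replicate 1 held the same 5 genes (all genes, 24.4%). In the set of replicate 2, which leaves replicate 1 out, 2 of the 7 had a region, mxc and His2Av (all genes, 22.4%), so the count moved by more than 1.5 times with that library. The median length of the 7 genes was 2292 bp, against 2166 bp over all protein-coding genes. No test of these shares was made.

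**Figure D1:**
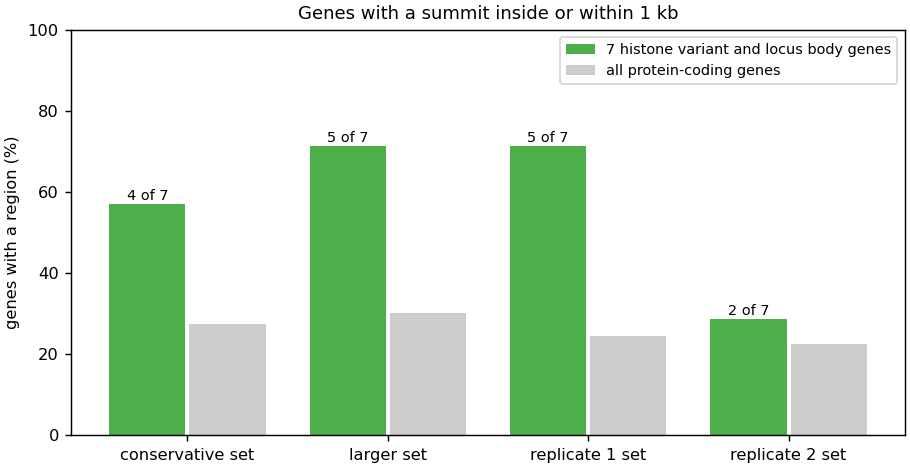
Percentage of genes with a summit inside the gene or within 1 kb (y axis) in each thresholded set (x axis), for the 7 genes (green) and for all protein-coding genes (grey); there is no error bar because each bar is 1 count. The 7 genes stand at 5 of 7 in replicate 1 and 2 of 7 in replicate 2, while all genes stand at 24.4% and 22.4%.

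Each gene with a region also had a summit within 500 bp of an annotated transcription start site (TSS): 4 of 7 in the conservative set against 17.6% of all genes, 5 of 7 in the larger set against 19.7%, 5 of 7 in replicate 1 against 15.8%, and 2 of 7 in replicate 2 against 13.8%. No region of these 4 sets lay between 1 and 2 kb of any of the 7 genes, and the summit farthest outside a gene was 167 bp away, at mxc.

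**Figure D2:**
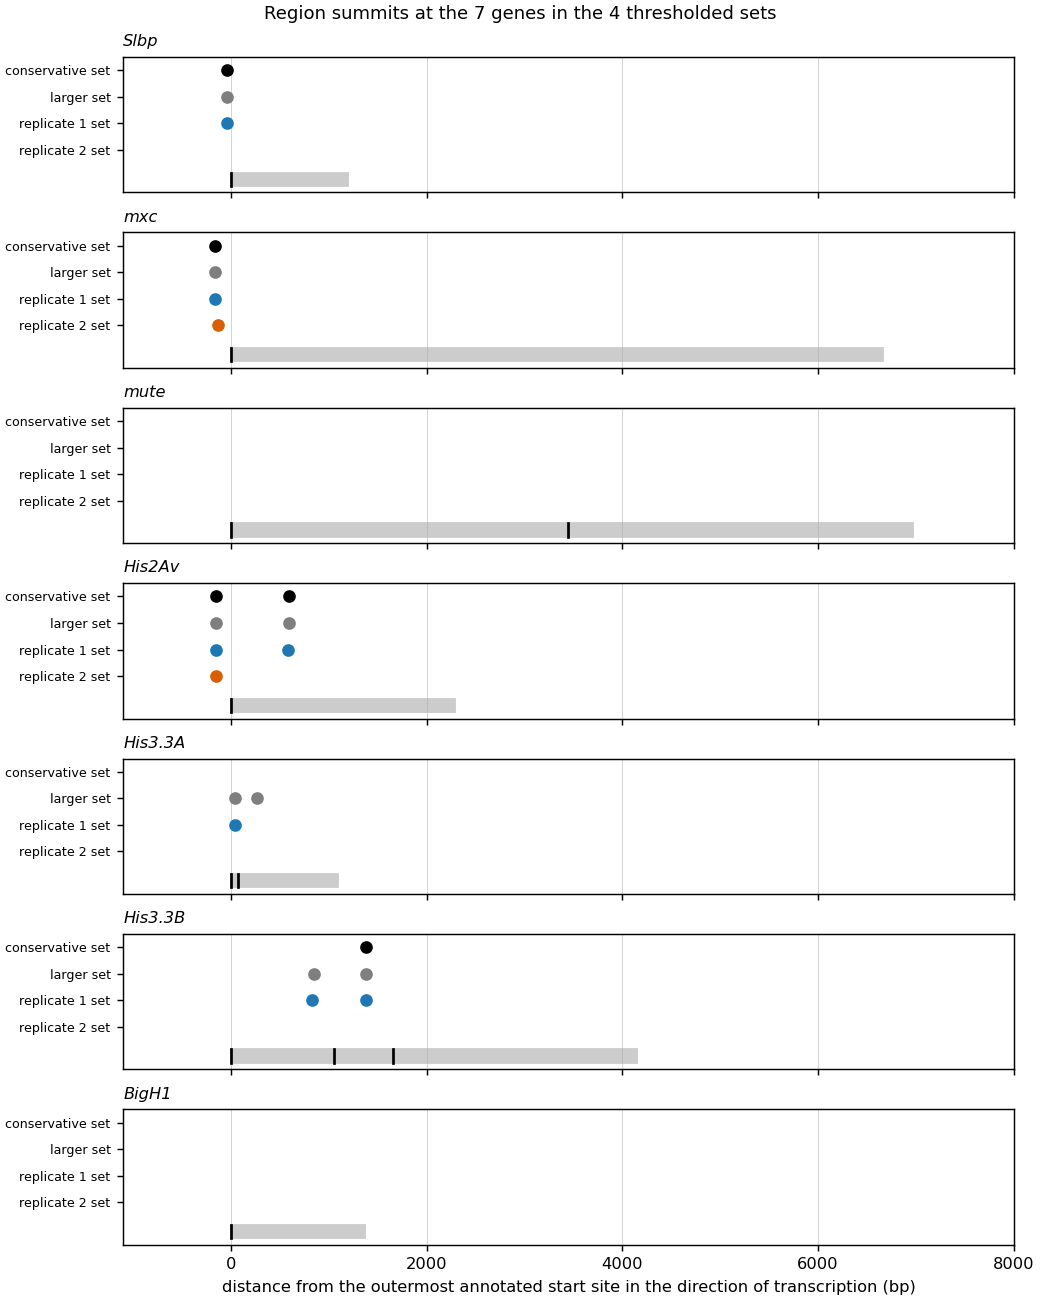
Summits (points) of the 4 thresholded sets along each gene; the x axis is the distance in bp from the outermost TSS in the direction of transcription, the grey bar is the gene and the black ticks are its TSSs. Summits sit just upstream of the TSS at Slbp and mxc and inside the gene at His3.3A and His3.3B, His2Av has both kinds, and mute and BigH1 have no point.

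The sequences under the summits are shown because the E2F consensus lay at the summit in some regions and was missing from others. The consensus was searched on both strands in 4 forms, of which TTCCCGC is one, TTCGCGC another, TTGCCGC the next and TTGGCGC the last. No form can overlap another on the same strand. Matches are in capitals, and a match on the opposite strand reads as its reverse complement. Sequences are from the RefSeq copy of the dm6 assembly, on the strand of the gene named, trimmed to stretches without annotated untranslated exons. The Slbp stretch is chr3R:29153267-29153477 (minus strand), the mxc stretch chrX:9243484-9243783 (minus strand), the 2 His2Av promoter stretches, from the wider region of replicate 1, chr3R:26866656-26866775, which holds the summit, and chr3R:26866808-26866928, which reaches the His2Av start site (plus strand), and the stretch around the intronic His2Av summit chr3R:26867369-26867668 (plus strand), which also spans a coding exon of His2Av.
Slbp promoter: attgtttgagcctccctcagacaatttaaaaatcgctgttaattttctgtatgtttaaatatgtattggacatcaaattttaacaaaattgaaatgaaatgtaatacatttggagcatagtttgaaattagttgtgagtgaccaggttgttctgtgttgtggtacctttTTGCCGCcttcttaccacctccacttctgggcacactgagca
mxc promoter: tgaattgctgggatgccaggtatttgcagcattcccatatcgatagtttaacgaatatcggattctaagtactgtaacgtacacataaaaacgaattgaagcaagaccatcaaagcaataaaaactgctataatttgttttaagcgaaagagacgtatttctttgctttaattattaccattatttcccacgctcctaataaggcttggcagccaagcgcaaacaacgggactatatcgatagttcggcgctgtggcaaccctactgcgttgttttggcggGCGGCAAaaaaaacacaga
His2Av promoter at the summit: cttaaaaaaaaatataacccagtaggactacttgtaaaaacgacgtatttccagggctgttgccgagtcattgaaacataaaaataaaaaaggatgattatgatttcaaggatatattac
His2Av promoter at the start site: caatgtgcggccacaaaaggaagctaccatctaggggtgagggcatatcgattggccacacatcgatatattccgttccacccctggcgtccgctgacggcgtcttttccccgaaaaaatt
His2Av intronic summit: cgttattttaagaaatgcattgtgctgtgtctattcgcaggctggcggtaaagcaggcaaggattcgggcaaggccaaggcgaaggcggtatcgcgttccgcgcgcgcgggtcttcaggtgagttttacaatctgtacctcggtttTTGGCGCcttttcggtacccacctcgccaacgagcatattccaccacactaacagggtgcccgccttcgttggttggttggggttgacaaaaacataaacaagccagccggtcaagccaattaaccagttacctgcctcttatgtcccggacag

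Of the 5 member regions in the conservative set, 3 held a consensus match, those of Slbp, mxc and the His2Av intron. Over the whole set 14.8% of regions held a match (656 of 4439), and so did 14.1% of the 13945 promoters taken from 250 bp before to 50 bp after the outermost TSS. In 2 of the 5 the match was centred 1 bp from the summit, at Slbp and in the His2Av intron. Over the whole set, 43 of 4439 regions (0.969%) had a match centred within 10 bp of the summit. These are matches of letters and do not show a site in use.

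**Figure D3:**
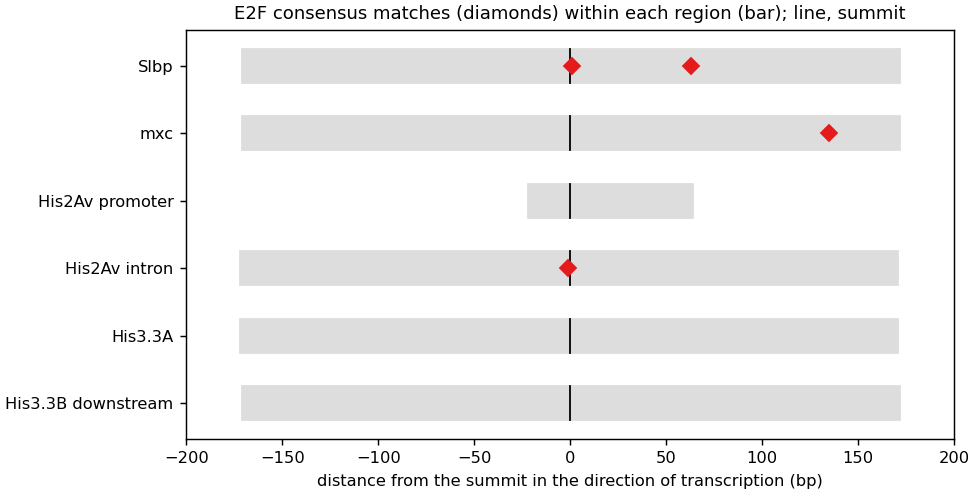
Each bar is a region of the larger set at 1 of the 5 genes, drawn around its summit (black line); the x axis is the distance in bp in the direction of transcription and the diamonds are centres of E2F consensus matches. The second His3.3A region, of height 4.87, and the upstream His3.3B region are left out. Downstream of the summit, Slbp has a diamond at 1 bp and another at 63 bp, and mxc has one at 135 bp. The His2Av intron has one 1 bp upstream of the summit. The other bars drawn have none, which says nothing of the regions left out.

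Slbp (FBgn0041186, chr3R:29152074-29153266, minus strand) encodes the protein that binds the stem-loop of histone mRNAs and is needed for their 3' end processing. Its 1 region (chr3R:29153134-29153477) had a height of 112 and rank 2224 of 4439 in the conservative set, near the middle, with a global IDR of 0.00261. The summit lay 40 bp upstream of the TSS, in intergenic sequence, and 218 bp upstream of the TSS of Rpn2, a proteasome subunit on the other side. Of the 2 matches in the region, TTGCCGC was centred 39 bp upstream of the Slbp TSS and TTCGCGC lay in the 5' UTR, 23 bp downstream of it. In replicate 1 the region had a height of 85.7, position 1612 of 72771 candidates, and a global IDR of 9.96e-05. In replicate 2 the candidate at the same place, with its summit 2 bp away, had a height of 27.9, position 5259 of 71193, and a global IDR of 0.0893. The Slbp region is therefore in the conservative set and in the set of replicate 1, and is not in that of replicate 2.

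mxc (FBgn0260789, chrX:9236801-9243467, minus strand) encodes Multi sex combs, the scaffold protein on which the histone locus body assembles. Its region (chrX:9243462-9243805) had a height of 159 in the conservative set, rank 1423 of 4439, and a global IDR of 7.33e-05. The summit lay 167 bp upstream of the mxc TSS and 183 bp upstream of that of Larp7, a La-related protein gene, so it was close to the middle between the pair of divergent promoters. The match TTGCCGC was centred 32 bp upstream of the mxc TSS and 135 bp from the summit. The region also held TATCGATA, the DNA replication-related element, at 2 places; it was searched on both strands and is its own reverse complement. That element was in 4.60% of the regions of the conservative set and in 9.37% of promoters. Replicate 1 had a height of 70.8 at this region (position 2155 of 72771) and replicate 2 a height of 88.8 (position 1095 of 71193), and both passed the threshold, with summits 29 bp apart. Of the 4 genes with a region in the conservative set, mxc was the 1 whose position was nearer the top in replicate 2 than in replicate 1 at its highest region.

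mute (FBgn0085444, chr2R:16948296-16955266, minus strand) encodes a further component of the histone locus body, and it had no region in any of the 4 sets. Its best candidate in replicate 1 missed the threshold closely: a height of 42.4, position 4662 of 72771 and a global IDR of 0.0158. That summit was 52 bp upstream of the inner of the 2 mute TSSs and 38 bp inside Ufm1, a gene that starts there in the other direction. In the ranked list behind the larger set the global IDR at the same place was 0.0121, and in the one behind the conservative set 0.475. In replicate 2 the candidate nearest to it lay 106 bp upstream of the inner TSS, with a height of 15.05 and a global IDR of 0.775. At the outer TSS the nearest candidate in replicate 1 had a height of 13.9 and a global IDR of 0.492.

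His2Av (FBgn0001197, chr3R:26866929-26869220, plus strand), the fly H2A variant that serves as both H2A.Z and H2A.X, was the gene with the highest region of the 7 and with 2 regions in the conservative set. The promoter region (chr3R:26866752-26866838) had a height of 216, rank 892 of 4439, and a global IDR of 1e-05, the floor of the scale. Its summit was 155 bp upstream of the His2Av TSS and 33 bp inside ball, which runs the other way and encodes nucleosomal histone kinase-1, so the region could be assigned to either gene. No consensus match lay in it. Heights there were 123 in replicate 1 and 94.6 in replicate 2, positions 888 of 72771 and 990 of 71193, with summits 2 bp apart. This was the member region on which the replicates differed least in position.

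The other His2Av region (chr3R:26867347-26867690) had its summit in an intron, 590 bp downstream of the TSS, with the match TTGGCGC at the summit. The region also covered a whole coding exon and part of the next one, and it is called the intron region after its summit. Its height was 169, rank 1318 of 4439, with a global IDR of 0.00281. In replicate 1 it was the higher of the pair, with a height of 135, position 755 of 72771, and a global IDR of 1e-05. In replicate 2 it had a height of 28.7, position 5016 of 71193, and a global IDR of 0.0168, which missed the threshold. The summit of replicate 2 lay 57 bp from that of replicate 1 and 55 bp from the centre of the match. So the 2 regions assigned to His2Av came in opposite orders in the replicates: the intron was above the promoter in replicate 1 and below it in replicate 2.

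In height the promoter region of His2Av had as nearest neighbours in the conservative set regions nearest to CG10584 and Acbp1, both at 216, and to NK7.1 and Snap29, both at 215. This is likeness in 1 value only.

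His3.3A (FBgn0014857, chr2L:5055058-5056149, plus strand) and His3.3B both encode the replacement histone H3.3. His3.3A had no region in the conservative set, where its candidate had a global IDR of 0.0154 and so lay just outside the threshold. In the larger set the same region (chr2L:5054931-5055274) had a height of 91.7, rank 3015 of 5167. The summit was 31 bp upstream of the second TSS, in the 5' UTR of transcripts that start at the first one, and 87 bp upstream of the TSS of CG14036 on the opposite strand. It held no consensus match. Heights were 70.7 in replicate 1, where it passed, and 22.4 in replicate 2, where the global IDR was 0.400. The larger set listed an overlapping region in the coding exon with a height of 4.87 and a q-like value of 0.953. Such values were not rare, with 1222 of the 5167 regions of that set above 0.05. In the conservative set 754 of the 4439 regions were above 0.05.

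His3.3B (FBgn0004828, chrX:9152523-9156669, minus strand) has 3 annotated TSSs, and the summits of its regions lay in introns between the outermost and the innermost. The downstream region (chrX:9155115-9155458) was the only one in the conservative set, with a height of 77.9, rank 3473 of 4439 and a global IDR of 0.00811, the weakest of the 5 member regions. Its summit was 275 bp upstream of the innermost TSS and it held no consensus match. A further region, between the outermost and the middle TSS, was in the larger set with a height of 80.5 and is called the upstream region here. Its global IDR was 0.00322 in the larger set and 0.782 in the ranked list behind the conservative set. Replicate 1 had both, with heights of 71.9 upstream and 52.8 downstream. Replicate 2 had neither in its set: the downstream candidate had a height of 24.04 and a global IDR of 0.0342, and no candidate overlapped the upstream region.

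BigH1 (FBgn0038252, chr3R:14663450-14664822, plus strand) encodes the linker histone of the early embryo, before His1 takes over. It had no region in any of the 4 sets. Its highest candidate in replicate 1 (height 25.3, global IDR 0.656) lay 754 bp upstream of the TSS in a coding exon of Rad17, and that in replicate 2 (height 26.8, global IDR 0.733) 993 bp downstream in its own coding exon. In the replicates' lists no BigH1 candidate lay within 500 bp of the TSS. Having a candidate meant little by itself, since all 7 genes had at least 1 in each ranked list, as did 87.9% of all protein-coding genes in replicate 1 and 84.6% in replicate 2.

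The replicates also differed in which member regions passed their thresholds. Of the 5 member regions of the conservative set, 5 overlapped a region of the set of replicate 1 by at least 1 bp and 2 a region of that of replicate 2. Thus 2 of 5 were in both, 3 of 5 in replicate 1 alone and 0 of 5 in replicate 2 alone, against 55.3%, 13.5% and 11.98% of all 4439 regions. The remaining 19.2% of all regions were in neither replicate's set, against 0 of 5 member regions. All 5 had a candidate in the ranked lists of both replicates, as had 98.7% of all regions. Read depth per library was not in the files, and its part in this was not tested.

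**Figure D4:**
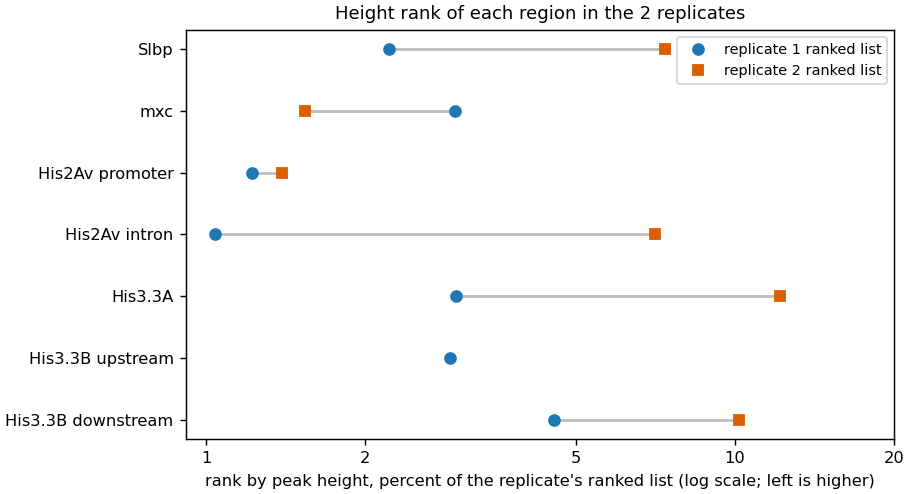
Position by height of each member region in the ranked lists of replicate 1 (circles) and replicate 2 (squares), as a percentage of the list on a log axis; a smaller percentage is a higher peak, and the His3.3A region of height 4.87 is left out. The pair lies close together at the His2Av promoter (1.22% and 1.39%). It lies far apart at the His2Av intron (1.04% and 7.05%) and Slbp (2.22% and 7.39%). The same holds at His3.3A (2.96% and 12.2%) and the downstream His3.3B region (4.54% and 10.2%). At mxc the square is the higher peak (2.96% and 1.54%). The upstream His3.3B region has no square because no candidate of replicate 2 overlapped it.

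The summits at Slbp and in the His2Av intron were richer in G and C than most. The GC content of 101 bp centred on the summit was 47.5% at Slbp and 54.5% in the His2Av intron, and 37.6% at the His2Av promoter, 31.7% at mxc and 25.7% at His3.3B. The median over the conservative set was 31.7%, with quartiles of 26.7% and 39.6%. The His3.3B region, with the lowest GC content of these, was also found in replicate 1 alone. The His3.3A summit of the larger set, whose region was not in the set of replicate 2, had 40.6%. A link between GC content and the difference between replicates was not tested.

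Other genes of histone supply were counted by the same rule. Of 11 further factors of the locus body and of histone mRNA 3' ends, 3 had a region in the conservative set (27.3%, against 27.4% of all protein-coding genes), a share near the background. They were Cpsf100, a cleavage factor subunit (heights 132 and 33.0), Spt6, an elongation factor (104), and Snp, an exonuclease (476). The lower Cpsf100 region overlapped the higher one and was weak, at rank 4288 of 4439 with a q-like value of 0.930. The Snp summit was nearer to the TSS of CG13501 and the higher Cpsf100 summit nearer to that of beta4GalNAcTB. FLASH, Lsm10, Lsm11 and the U7 snRNA gene, all parts of the processing machinery, had none. A list of 14 genes held histone chaperones and the chromatin remodelers Chd1 and XNP. Of the 14, 7 had a region (50%, against 57.1% of the 7 genes described here and 27.4% of all protein-coding genes). The 7 were, with the height of each, the CAF-1 genes FBgn0030054 (797) and FBgn0033526 (213), dre4 (254), Chd1 (183), Df31 (102 and 101), yem (88.6) and XNP (81.9). The other CAF-1 gene of the list had none in the conservative set. The XNP region was in none of the other sets. Genes of this list with a region numbered 7 of 14 in the larger set, 9 in replicate 1 and 6 in replicate 2. All protein-coding genes stood at 30.1%, 24.4% and 22.4% there. The nearest TSS was that of a neighbour for Chd1 (Bem46), yem (Ctl2) and FBgn0033526 (CG11777). The H4 gene His4r had no region in any of the 4 sets, and cid, the centromeric H3 variant, had 1 in the larger set alone (height 63.2).

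The 111 annotated canonical histone genes of the repeated cluster (chr2L:21416953-21541681) had no region in any of the 4 sets. The cluster spans 125 kb, and it held 1 candidate in replicate 1 and 4 in replicate 2. That is 0.802 and 3.21 candidates per 100 kb, against 56.5 and 54.8 over arm 2L. Candidates were nearly missing from the cluster as a whole, and how reads from repeated sequence were handled is not given in the sources used here, so no statement on E2f1 at the canonical genes can be made.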

How the data were processed

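Regions were taken from 8 files of the authors, in the dm6 build per the labels: 4 thresholded sets and 4 ranked lists. The deposited peak height is a score with no stated rescaling. The deposited -log10 columns hold a q-like value and, in the ranked lists, the global IDR, with a ceiling of 5. Per the deposited read-me, regions were derived from alignments and a control alignment, not analysed here. The aligner and peak caller, with their versions, are not stated there. Each ranked list was tied to the set whose regions all passed a global IDR of 0.01 there. Summits were written 1-based. Genes came from Ensembl BDGP6.54, release 115, and bases from the RefSeq Release 6 sequence, whose chromosome lengths held all regions. Sequence features of 1 region of the larger set, at His3.3B, are not reported here. Counting rules were tested on simulated regions. No hypothesis test was run: the design has 1 group, and lists are described by counts beside all genes. The members, lists and rules were chosen with earlier results of these data known. The named genes were all members, genes whose TSS is nearest to a member summit, listed genes with a region, and neighbours in height; the TATCGATA search, Rpn2, Larp7, CG14036, Ufm1, Rad17, genes nearest to summits of listed genes, and listed genes without a conservative region were added after the values were seen. Alternatives were the set, the IDR threshold, distances, motif form and window, and the overlap rule. Python 3.11.15, numpy 2.4.6, pandas 2.3.3 and matplotlib 3.10.9 were used.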

Additional observations from a re-analysis of the deposited data

How the results depend on the processing

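No paired analysis was possible because the series has 1 group. Leaving out a replicate in turn gave 2 to 5 of the 7 genes with a region, 2 to 5 with a promoter summit and 1 to 4 regions with a consensus match. The lower values are those without replicate 1. At a global IDR of 0.001 or lower in the conservative set, 2 genes had a region, 2 a promoter summit and 1 of 2 regions a match. With the summit inside the gene, 2 genes had a region (His2Av and His3.3B). Regions in both replicates numbered 1 of 5 with a reciprocal overlap of 50% and 5 of 5 with the ranked lists, which hold weak candidates. The larger set, distances of 500 bp and 2 kb, overlap of the whole region, promoter distances of 200 and 1000 bp, 8-letter motifs, windows of 50 and 100 bp and summits within 100 bp kept each of their counts within 1.5 times. Across the sets and thresholds that held them, the highest region stood at 41.3% to 50.1% of its set for Slbp, 27.7% to 54.96% for mxc, 17.3% to 33.6% for His2Av and 53.6% to 78.2% for His3.3B, the sets being of different lengths. The highest region was also not the same one in every set. For His2Av it was the intron region in replicate 1 and the promoter region in the others. For His3.3B it was the upstream region in the larger set and replicate 1. The downstream His3.3B region stood at 80.2% in replicate 1. Depth is unknown, so absence from a set is not absence of binding.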

Other observations

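The contrast between the replicates at Slbp and the His2Av intron was set beside all regions of the conservative set. It was noticed in these regions first, so it is a description with no test. A consensus match lay within 50 bp of the summit in 185 of 4439 regions (4.17%). Of these 185, 75.7% were found again in replicate 1 and 57.8% in replicate 2, by overlap with the thresholded sets. In the 4254 regions without such a match the shares were 68.5% and 67.7%. Regions found in replicate 1 alone made up 24.9% of those with a match and 13.02% of those without, and those found in replicate 2 alone 7.03% and 12.2%. The median position was at 2.36% of the list in replicate 1 and 3.63% in replicate 2 with a match, and at 3.31% and 3.18% without. Slbp and the His2Av intron are among the 185 regions. The contrast was not limited to regions with such a match. The downstream His3.3B region, without a match, was also found in replicate 1 alone, at 4.54% and 10.2% of the lists. The His3.3A region of the larger set, without a match, stood at 2.96% and 12.2%. The mxc and His2Av promoter regions, without a match within 50 bp, were found in both replicates.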
